A study of Mus musculus with 24 samples.

Results

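The adhesion molecules described here are 9 mouse genes that act in the capture and passage of leukocytes through the vessel wall: the endothelial selectins Sele (E-selectin) and Selp (P-selectin), the selectin ligand Selplg, the endothelial integrin ligands Icam1, Icam2 and Vcam1, the leukocyte integrin chains Itgam and Itgb2, and the junction protein Pecam1. They were taken by name, as every probe whose platform gene symbol is one of these 9. Each gene had 1 probe, and all 9 probes entered the test, out of 13544 probes tested and 24046 on the Illumina beadchip. Whole lung RNA came from male C57BL/6 mice aged 6 to 8 weeks. The 8 groups, with 3 arrays each, were Rag-1 null lung 1, 4 and 10 days after LPS, Rag-1 null control lung, wild type lung 1, 4 and 10 days after LPS, and wild type control lung. LPS, or lipopolysaccharide, is a bacterial endotoxin that inflames the lung, and Rag-1 null mice cannot rearrange antigen receptor genes and so make no mature T or B cells. How LPS was given, at what dose, and how many animals stand behind each array is not stated in the labels. Each p-value therefore covers the scatter among these samples only, and that scatter may be technical.

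Leukocytes leave the blood in steps. Selectins on activated endothelium slow them by binding carbohydrate-bearing ligands such as the product of Selplg, after which integrins on the leukocyte bind immunoglobulin-type ligands on the endothelium. Itgam and Itgb2 pair to form Mac-1 (CD11b/CD18), a receptor for ICAM-1 on neutrophils and macrophages, VCAM-1 is bound by another integrin, VLA-4, and PECAM-1 acts at the endothelial junction during passage. E-selectin, ICAM-1 and VCAM-1 are known targets of NF-kappa B in activated endothelium, while ICAM-2 and PECAM-1 are made by resting endothelium.

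The tissue and genotype labels were checked first. The 6 probes of the lung epithelium genes Ager, Scgb1a1, Sftpa1, Sftpb and Sftpc were above background on all 24 arrays. The mean log2 level of 6 measured T cell markers was 4.64 to 4.66 in Rag-1 null controls, against 5.44 to 5.87 in wild type controls, and that of 4 measured B cell markers was 4.5 to 4.59 in Rag-1 null controls, against 5.94 to 6.79 in wild type controls. The Rag1 probe was above background on at most 2 arrays of any group, wild type included, and so checks nothing. Between 9517 and 12125 probes per array were above background. Wild type control and day 1 arrays had 9517 to 10319, against 10410 to 11518 in the same Rag-1 null groups. At day 4 and day 10 wild type arrays had more, 11049 to 12125 against 10552 to 11213. In wild type LPS day 1 lung, replicate 1 correlated with its group at 0.858 and 0.914 over all tested probes, while arrays of the other groups correlated with their own group at 0.966 or more, and so the counts of called genes and the called differences of the 9 genes that use its day 1 group are given with and without it. Arrays of one replicate number shared a slide and each group kept one position on every slide, so that position and group cannot be told apart.

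A RefSeq promoter window, the 250 bases before a listed start (build GRCm38.p6), was at hand for Sele, Selp, Icam1 and Itgam. Selplg, Icam2, Vcam1, Itgb2 and Pecam1 were not in that table. The windows of Sele, Selp and Icam1 are shown because these genes were high together at day 1 in both genotypes and because each holds the letters GGNNNTTCC, a loose form of the kappa B site, on one strand or the other. They lie at chr1:164047984-164048233, chr1:164115014-164115263 and chr9:21015690-21015939, all on the plus strand. Another start of Sele is annotated upstream of the one used here. Capitals mark GGNNNTTCC or its reverse complement.
Sele: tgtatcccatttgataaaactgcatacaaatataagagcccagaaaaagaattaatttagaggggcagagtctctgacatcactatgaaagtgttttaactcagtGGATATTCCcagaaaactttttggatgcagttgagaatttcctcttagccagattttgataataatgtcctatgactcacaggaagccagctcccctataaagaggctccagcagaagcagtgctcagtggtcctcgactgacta
Selp: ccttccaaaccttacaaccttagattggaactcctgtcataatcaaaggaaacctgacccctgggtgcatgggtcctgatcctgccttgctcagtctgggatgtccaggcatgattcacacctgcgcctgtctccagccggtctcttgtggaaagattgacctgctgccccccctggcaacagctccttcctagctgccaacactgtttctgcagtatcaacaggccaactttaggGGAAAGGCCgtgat
Icam1: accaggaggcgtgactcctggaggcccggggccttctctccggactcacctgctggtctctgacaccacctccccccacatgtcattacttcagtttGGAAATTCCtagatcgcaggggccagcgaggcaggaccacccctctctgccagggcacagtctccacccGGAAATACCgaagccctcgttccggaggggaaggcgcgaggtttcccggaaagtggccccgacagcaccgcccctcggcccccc
GGNNNTTCC was found in 3 of the 4 windows and in 15.7% of 32851 promoters of the same length. In Sele it lay at bases -145 to -137 from the start as GGATATTCC, and in Selp at -14 to -6 as GGAAAGGCC. Icam1 held 2 matches, GGAAATTCC at -153 to -145 and GGAAATACC at -84 to -76. The stricter kappa B consensus was in 0 of the 4 windows and in 3.9% of all promoters. The AP-1 letters TGANTCA were in Sele and Selp (6.75% of all promoters), and the letters TTCNNNGAA, a STAT site called GAS, were in Sele and Icam1 (7.02%), where the Sele match overlaps the kappa B match. GAGGAA, the core bound by the myeloid factor PU.1, was in Sele and, at 2 places, in Itgam (23.3% of all promoters). TATAAA was in Sele alone of the 4 (12.4%), and the ETS core CGGAAG was in 0 of the 4 (13.6%). Letters were searched on both strands, and a match is a description of the window and not a site shown to be bound.

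Values below are log2 normalized intensities, a level that can be compared between groups for one probe but not between probes. A difference was called when its adjusted p from limma was under 0.05 over all 13544 probes, and folds of faint probes are understated on this scale. At day 1 after LPS, 7 of the 9 genes were called in Rag-1 null lung, where 16.9% of all probes were called, and 9 of the 9 were called in wild type lung, where 39.2% were. Without wild type replicate 1, 8 of the 9 were called in wild type lung, Itgam no longer, beside 45.3% of all probes. Sele and Itgam met the detection filter through LPS arrays alone, so their calls against control are not independent of the filter. Sele, Selp, Icam1, Selplg, Itgam and Itgb2 were called higher after LPS in both genotypes and Icam2 was called lower in both. For Itgam, however, no wild type control or day 1 array was above background. The wild type Itgb2 call was lost in 4 of 6 runs that each left out an array. Vcam1 was higher and Pecam1 lower with a call in wild type lung, while neither passed in Rag-1 null lung. The median log2 fold change of the 9 genes was 0.84 in Rag-1 null lung and 1.01 in wild type lung, beside -0.01 for all probes in each genotype. All 9 wild type LPS ranges lay apart from the control ranges, as did those of 36.8% of all probes. The plot of levels by array shows the highest means of Sele, Selp and Icam1 at day 1 in both genotypes, the lowest Icam2 at day 1 in wild type lung, and the highest Itgb2 means at day 4.

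**Figure D1:**
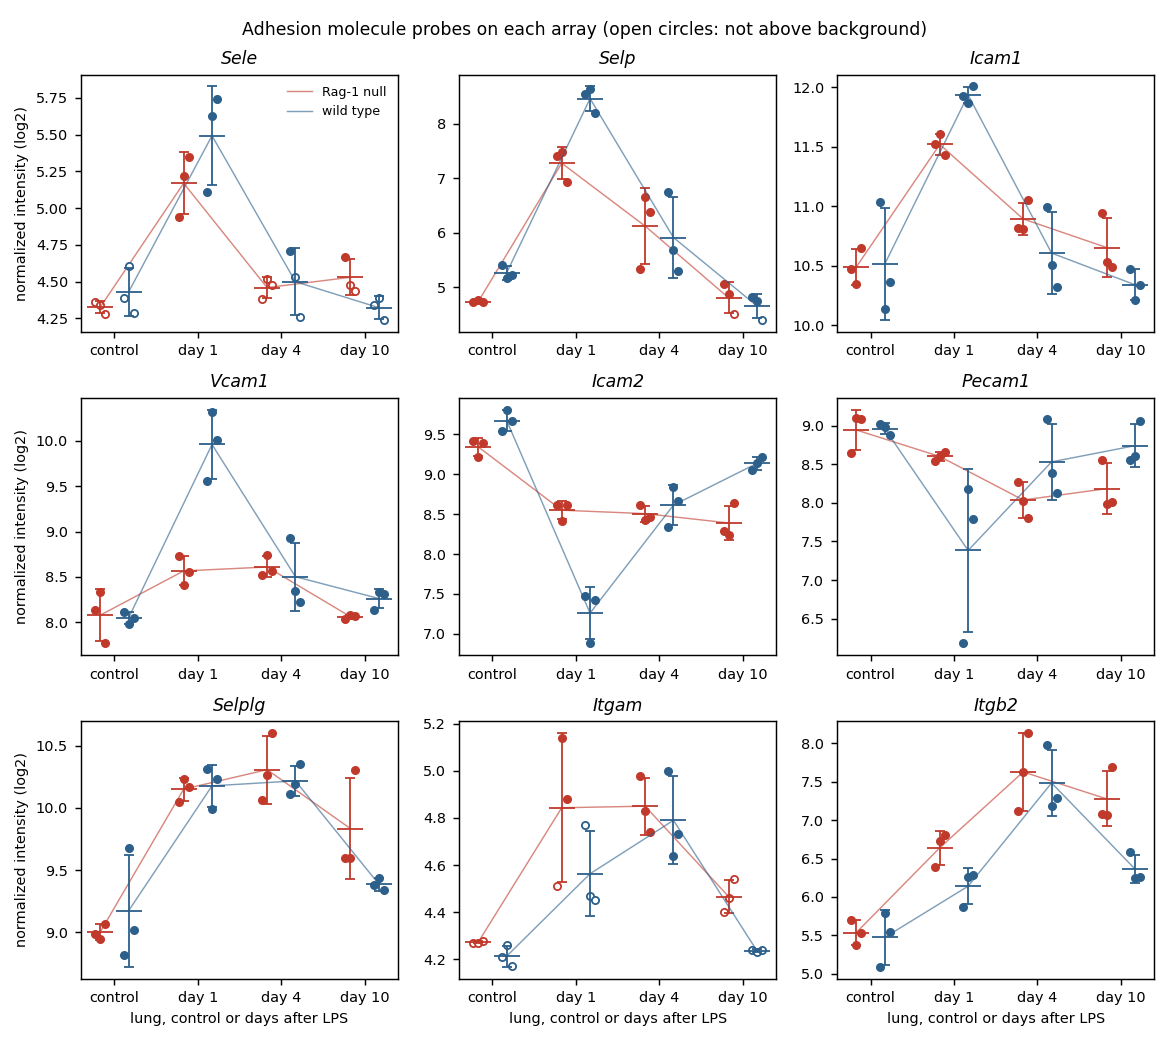
Log2 normalized intensity (y axis) of each of the 9 probes in control lung and at day 1, 4 and 10 after LPS (x axis), with Rag-1 null in red and wild type in blue; points are arrays, open where the probe was not above background, and horizontal marks and bars are the mean and SD of 3 arrays. Selp averages 7.27 in Rag-1 null and 8.46 in wild type lung at day 1, while Icam2 falls to 7.26 in wild type lung on that day.

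Selp, the P-selectin of platelets and endothelium, was higher at day 1 in both genotypes. At day 1 its log2 levels were 7.41, 7.48 and 6.93 in Rag-1 null lung, against 4.72, 4.77 and 4.72 in Rag-1 null controls. The wild type levels were 8.54, 8.63 and 8.20, against 5.40, 5.16 and 5.23 in controls. LPS and control ranges did not overlap in either genotype, and the day 1 arrays of wild type lung all lay above those of Rag-1 null lung. The log2 fold change was 2.54 ± 0.30 (SE), 5.81-fold, in Rag-1 null lung with an adjusted p of 2.51e-06, and 3.19 ± 0.30, 9.13-fold, in wild type lung with an adjusted p of 3.55e-08. Without wild type replicate 1 the wild type value was 3.15.
By day 4 the Selp arrays spread widely, with 5.33, 6.65 and 6.38 in Rag-1 null lung and 6.74, 5.69 and 5.30 in wild type lung. The day 4 rise of 1.38 ± 0.30, 2.61-fold, was called in Rag-1 null lung (adjusted p 0.00127), while the wild type value of 0.64 ± 0.30 was not (adjusted p 0.13), although it was called at 0.95 when wild type LPS day 4 replicate 3 was left out (adjusted p 0.0354). The difference between those day 4 responses, 0.74 ± 0.43, did not pass (adjusted p 0.549). At day 10 Selp was at 5.05, 4.87 and 4.5 in Rag-1 null lung and at 4.82, 4.75 and 4.40 in wild type lung, with no call against controls in either genotype.

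Sele, the E-selectin made by activated endothelium, was above background on 8 of 24 arrays, and those 8 included all 6 day 1 arrays. Its day 1 levels were 4.94, 5.22 and 5.35 in Rag-1 null lung, against 4.36, 4.34 and 4.28 in controls. Wild type lung had 5.11, 5.63 and 5.74 at day 1, against 4.39, 4.61 and 4.29 in controls. Day 1 and control ranges did not overlap in either genotype. No control array was above background, so the folds are bounds: at least 1.52-fold higher in Rag-1 null lung (adjusted p 0.000207) and at least 1.68-fold higher in wild type lung (adjusted p 4.11e-06). The wild type log2 fold change as fitted was 1.06, or 1.25 without replicate 1. In a bound, the background of the dim group is set at the faintest probe above background on each array, or at the probe's own level where that is higher. The other detections were 1 array of wild type lung at day 4 (4.71) and 1 array of Rag-1 null lung at day 10 (4.67).

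Icam1, the main ICAM ligand of leukocyte integrins, stood at 11.52, 11.61 and 11.43 in Rag-1 null lung at day 1, against 10.47, 10.35 and 10.65 in controls. Wild type Icam1 stood at 11.93, 11.87 and 12.01 at day 1, against 11.04, 10.14 and 10.36 in controls. Wild type control replicate 1 was the highest control and still lay below every day 1 array. The rise was 1.03 ± 0.19, 2.04-fold, in Rag-1 null lung (adjusted p 0.000494) and 1.42 ± 0.19, 2.68-fold, in wild type lung (adjusted p 3.86e-06), or 1.43 without replicate 1. At day 4 Icam1 ranged from 10.81 to 11.05 in Rag-1 null lung and from 10.32 to 10.99 in wild type lung, with log2 fold changes of 0.40 (adjusted p 0.13) and 0.10 (adjusted p 0.758). The Rag-1 null value was called in the authors' deposited table (0.72, adjusted p 0.00609) and with only the compared arrays in the fit (adjusted p 0.0289).

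Vcam1, the endothelial ligand of VLA-4, differed most between the genotypes among the inducible genes. At day 1 its levels were 8.73, 8.41 and 8.56 in Rag-1 null lung, against 8.14, 8.33 and 7.77 in controls. The wild type levels were 9.55, 10.31 and 10.01 at day 1, against 8.12, 7.98 and 8.05 in controls. The day 1 wild type arrays were thus above every other array of this probe. The wild type rise was 1.91 ± 0.18, 3.75-fold (adjusted p 4.21e-08), and 2.11 without replicate 1. The Rag-1 null value of 0.49 ± 0.18 did not pass (adjusted p 0.0691). It passed at 0.62 when Rag-1 null control replicate 2 was left out (adjusted p 0.0475), and with only the compared arrays in the fit (adjusted p 0.0139).
Day 4 levels of Vcam1 were 8.52, 8.74 and 8.57 in Rag-1 null lung and 8.93, 8.35 and 8.23 in wild type lung. The Rag-1 null value of 0.53 ± 0.18 was called (adjusted p 0.0327), a call that was lost without Rag-1 null control replicate 1 or 3 or LPS day 4 replicate 2 or 3 (adjusted p 0.0582, 0.191, 0.122 and 0.0686) and with no detection filter (adjusted p 0.0553). The wild type value of 0.45 ± 0.18 was not called (adjusted p 0.0754) and was called at 0.59 without LPS day 4 replicate 3 (adjusted p 0.0379) and at 0.70 in the authors' deposited table (adjusted p 0.00603). At day 10 levels were within 8.04 to 8.08 in Rag-1 null lung and 8.14 to 8.34 in wild type lung.

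Icam2, an ICAM carried by resting endothelium, fell after LPS at day 1 in both genotypes. Its levels at day 1 were 8.61, 8.42 and 8.62 in Rag-1 null lung, against 9.42, 9.22 and 9.39 in controls. Wild type Icam2 was at 7.48, 6.88 and 7.42 at day 1, against 9.54, 9.81 and 9.67 in controls. All 3 wild type day 1 arrays were below every other Icam2 value of the series. The log2 fold change was -0.79 ± 0.16, 1.73-fold lower, in Rag-1 null lung (adjusted p 0.000873) and -2.41 ± 0.16, 5.33-fold lower, in wild type lung (adjusted p 2.03e-10). It was -2.52 without wild type replicate 1.
Icam2 stayed below control at day 4 in both genotypes. In Rag-1 null lung the levels were 8.62, 8.43 and 8.47 at day 4 and 8.29, 8.24 and 8.64 at day 10, with called log2 fold changes against control of -0.84 (adjusted p 0.000281) and -0.96 (adjusted p 0.000247). In wild type lung they were 8.34, 8.84 and 8.66 at day 4 and 9.05, 9.14 and 9.22 at day 10, with a called fold change of -1.06 at day 4 (adjusted p 4.17e-05) and -0.54 at day 10, which did not pass (adjusted p 0.0726) but was called with only the compared arrays in the fit (adjusted p 0.0314). The Rag-1 null arrays stayed within a narrow band from day 1 to day 10, whereas the wild type arrays were lowest at day 1. The difference between the genotypes' responses did not pass at day 4 (0.22, adjusted p 0.775) or at day 10 (-0.42, adjusted p 0.384).

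Pecam1, the junction protein PECAM-1, was at 8.54, 8.60 and 8.66 in Rag-1 null lung at day 1, against 8.64, 9.10 and 9.09 in controls. Wild type Pecam1 was at 6.18, 8.18 and 7.79 at day 1, against 9.02, 8.98 and 8.88 in controls. The lowest of these, 6.18, came from the array that stood apart. The wild type log2 fold change was -1.57 ± 0.33, 2.98-fold lower (adjusted p 0.000615), and -0.97 without that array (adjusted p 0.00128). With only the compared arrays in the fit, which then takes its spread from 6 arrays, the adjusted p was 0.0501. The Rag-1 null value of -0.34 ± 0.33 did not pass (adjusted p 0.579).
At day 4 Pecam1 was at 8.27, 8.03 and 7.81 in Rag-1 null lung and 9.08, 8.38 and 8.13 in wild type lung. The Rag-1 null fold change of -0.91 ± 0.33 was called (adjusted p 0.0453), and the call was lost without Rag-1 null control replicate 2 or 3 or LPS day 4 replicate 2 or 3 (adjusted p 0.131, 0.128, 0.102 and 0.154) and with the replicate number as a block (adjusted p 0.0554), with no detection filter (adjusted p 0.064) and with no intensity trend (adjusted p 0.0504). The wild type value of -0.43 was not called (adjusted p 0.382). By day 10 the arrays held 8.56, 7.98 and 8.01 in Rag-1 null lung and 8.56, 8.60 and 9.06 in wild type lung. The Rag-1 null value against control, -0.76, did not pass (adjusted p 0.194) but was called with only the compared arrays in the fit (adjusted p 0.0178).

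Endothelial marker genes were counted beside Icam2 and Pecam1. Of 15 measured markers of lung endothelium, 3 were lower and 0 higher at day 1 in Rag-1 null lung, and 10 were lower and 1 higher (Robo4) in wild type lung, with the same wild type counts when replicate 1 was left out. These counts stand beside 16.9% of all probes called in Rag-1 null lung and 39.2% in wild type lung on that day. The mean log2 level of the list was 7.62 to 7.77 at day 1 in Rag-1 null lung, against 7.96 to 8.18 in controls, and 7.06 to 7.22 at day 1 in wild type lung, against 7.98 to 8.02 in controls. At day 4, 13 of the 15 were lower in Rag-1 null lung and 8 in wild type lung, beside 27.2% and 23.3% of all probes. At day 10, 11 were lower in Rag-1 null lung and 0 in wild type lung, beside 8.87% and 2.05% of all probes. The list means were then 7.11 to 7.17 in Rag-1 null lung and 7.78 to 7.92 in wild type lung. Between 12 and 15 of the 15 were above background on every array, and Tek, the angiopoietin receptor, was lower by 2.37 on the log2 scale in wild type lung at day 1. In whole lung RNA, fewer cells of a type and less RNA per cell cannot be told apart, and the part of these markers in the values of Icam2 and Pecam1 was not tested.

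**Figure D2:**
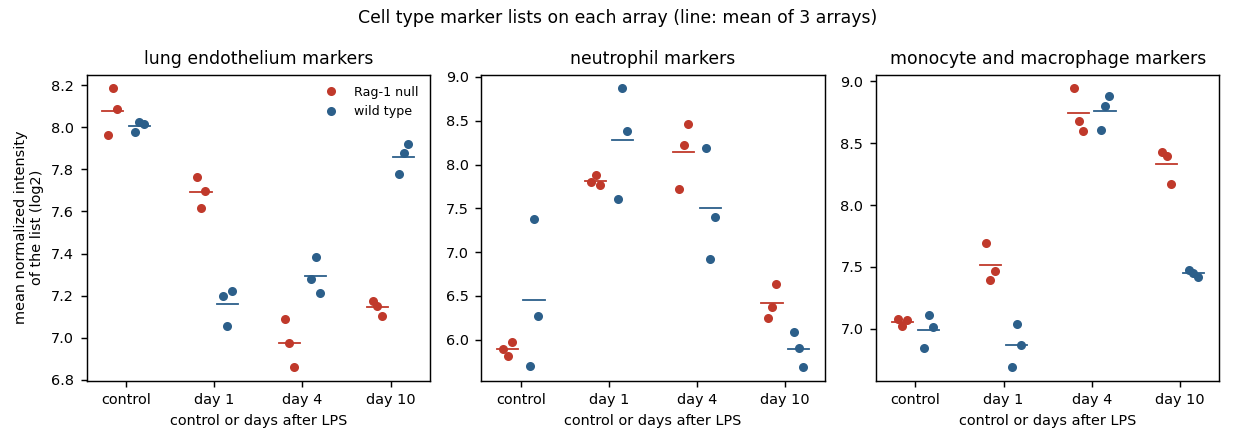
Mean log2 normalized intensity of the measured markers of lung endothelium, neutrophils, and monocytes and macrophages (y axes) in control lung and at day 1, 4 and 10 after LPS (x axes), with Rag-1 null in red and wild type in blue; points are arrays and lines are means of 3 arrays. The endothelial list lies at 7.11 to 7.17 in Rag-1 null lung and at 7.78 to 7.92 in wild type lung at day 10.

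On the leukocyte side, Itgb2, the beta chain shared by the leukocyte integrins, was higher at day 1 and had its highest mean at day 4 in both genotypes. Its levels at day 1 were 6.39, 6.73 and 6.80 in Rag-1 null lung, against 5.70, 5.38 and 5.53 in controls, and 5.87, 6.26 and 6.29 in wild type lung, against 5.09, 5.79 and 5.54 in controls. At day 4 they were 7.12, 7.63 and 8.13 in Rag-1 null lung and 7.98, 7.18 and 7.29 in wild type lung. At day 10 they were 7.08, 7.06 and 7.69 in Rag-1 null lung and 6.58, 6.25 and 6.26 in wild type lung. The ranges of the genotypes overlapped at day 4, and the Rag-1 null day 10 arrays all lay above the wild type ones.
Day 4 gave log2 fold changes of 2.09 ± 0.25, 4.26-fold, in Rag-1 null lung (adjusted p 1.18e-06) and 2.01 ± 0.25, 4.03-fold, in wild type lung (adjusted p 4.41e-06). At day 1 the Rag-1 null value was 1.10 ± 0.25 (adjusted p 0.00292). The wild type day 1 value of 0.66 ± 0.25 was called (adjusted p 0.0369), but not without control replicate 1 or 3 or LPS replicate 2 or 3 (adjusted p 0.183, 0.0614, 0.0894 and 0.109), nor in the authors' deposited table (0.41, adjusted p 0.168). It was 0.80 without LPS replicate 1 (adjusted p 0.0167). At day 10 Itgb2 was 3.35-fold higher in Rag-1 null lung, 1.74 ± 0.25 (adjusted p 5.71e-05), and the wild type value of 0.89 ± 0.25 did not pass (adjusted p 0.059) but was called with only the compared arrays in the fit (adjusted p 0.0456) and in the authors' deposited table (adjusted p 0.0496).

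Itgam, the alpha chain of Mac-1, was above background on 8 of 24 arrays. Detected levels were 5.14 and 4.88 on 2 arrays of Rag-1 null lung at day 1, with 4.51 on the third not above background, and 4.98, 4.83 and 4.74 in Rag-1 null lung and 5.0, 4.64 and 4.73 in wild type lung at day 4. No control, day 10 or wild type day 1 array was above background. The rise was at least 1.21-fold at day 1 (adjusted p 0.00208) and at least 1.22-fold at day 4 (adjusted p 0.00108) in Rag-1 null lung, and at least 1.04-fold at day 4 in wild type lung (adjusted p 0.00163). The wild type day 1 difference of 0.35 was called (adjusted p 0.0288) with no array of either group above background, so no fold is given, and it was not called without LPS replicate 1 (0.24, adjusted p 0.132) or without control replicate 1 or 3 (adjusted p 0.0631 and 0.0765), nor with only the compared arrays in the fit (adjusted p 0.0685).

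Selplg, which encodes PSGL-1 on leukocytes, was at 10.05, 10.23 and 10.17 in Rag-1 null lung at day 1, against 8.99, 8.95 and 9.07 in controls. Wild type Selplg was at 10.31, 9.99 and 10.23 at day 1, against 8.82, 9.68 and 9.02 in controls. Control replicate 2 of wild type lung was the highest control and did not reach the LPS range. The day 1 rise was 1.15 ± 0.19, 2.22-fold, in Rag-1 null lung (adjusted p 0.000181) and 1.01 ± 0.19, 2.01-fold, in wild type lung (adjusted p 0.000262), and 0.94 in wild type lung without replicate 1.
At day 4 Selplg rose by 1.30 ± 0.19 in Rag-1 null lung (adjusted p 2.13e-05) and by 1.05 ± 0.19 in wild type lung (adjusted p 0.000467). Its day 10 levels were 9.60, 9.60 and 10.30 in Rag-1 null lung and 9.38, 9.44 and 9.34 in wild type lung. The Rag-1 null value at day 10, 0.83 ± 0.19, was called (adjusted p 0.00685), but not without LPS day 10 replicate 3 (0.59, adjusted p 0.0555). The wild type value of 0.21 was not called (adjusted p 0.657).

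Leukocyte and red blood cell markers were counted beside Itgb2, Itgam and Selplg. Of 14 neutrophil markers, 9 were higher on day 1 in Rag-1 null lung and 11 in wild type lung, with none lower. On that day 16.9% of all probes were called in Rag-1 null lung and 39.2% in wild type lung. The day 4 counts were 13 in Rag-1 null and 6 in wild type lung, beside 27.2% and 23.3% of all probes. The day 10 counts were 1 in Rag-1 null and 0 in wild type lung, beside 8.87% and 2.05% of all probes. Without wild type LPS day 1 replicate 1, 13 were higher at day 1 in wild type lung, beside 45.3% of all probes. The same shares stand beside the counts of the other markers below. The neutrophil list mean was 7.76 to 7.88 at day 1 in Rag-1 null lung, against 5.82 to 5.97 in controls, and 7.60 to 8.87 at day 1 in wild type lung, against 5.70 to 7.38 in controls, where control replicate 2 was the highest. Of 10 measured monocyte and macrophage markers, day 1 had 5 higher and 1 lower in Rag-1 null lung and 3 higher and 4 lower in wild type lung, or 2 lower without replicate 1. Day 4 had 7 higher and 1 lower in Rag-1 null lung and 8 higher in wild type lung, and day 10 had 7 higher in Rag-1 null lung and 1 in wild type lung. Their list mean at day 10 was 8.17 to 8.43 in Rag-1 null lung and 7.42 to 7.48 in wild type lung. Of the B cell markers, 3 of 4 were lower at day 1 and at day 4 in wild type lung. Of 6 T cell markers, 3 were lower and 1 higher there at day 1, and of 3 red blood cell markers, 2 were higher, or 3 without replicate 1. The part of these markers in the values of Itgb2, Itgam and Selplg was not tested.

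**Figure D3:**
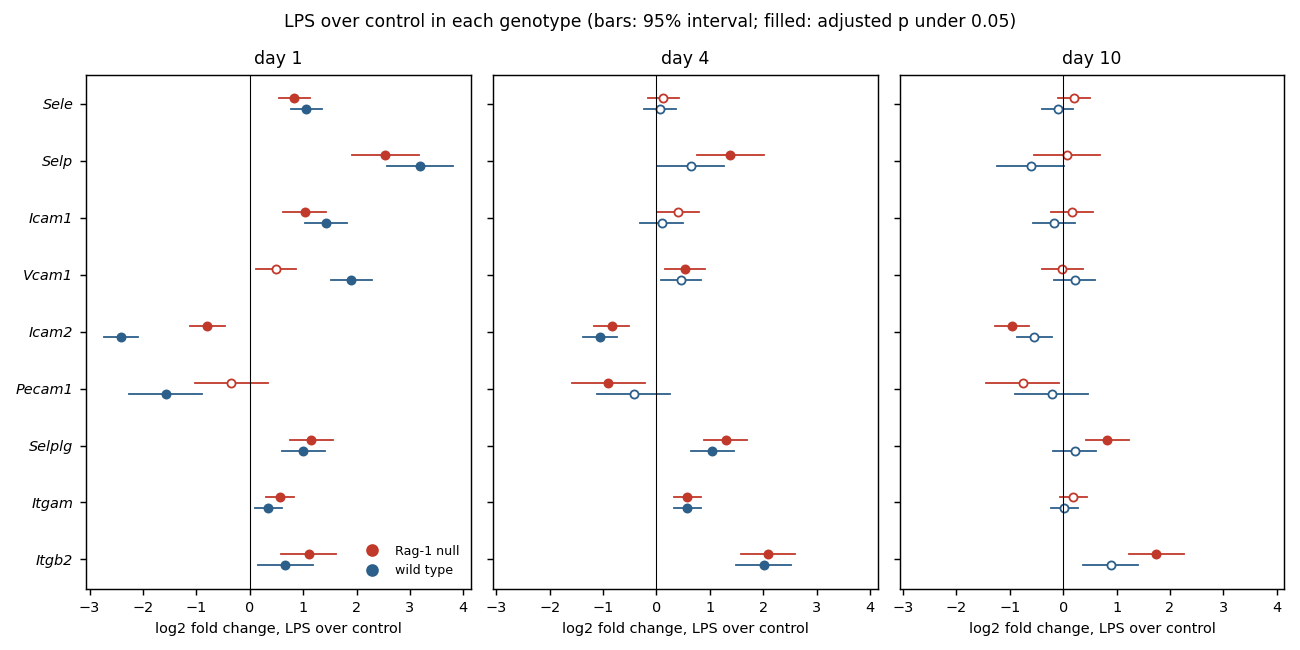
Log2 fold change of LPS over control (x axes) for each gene (y axis) at day 1, 4 and 10, with Rag-1 null in red above wild type in blue; bars are 95% intervals of the limma fit and filled points have an adjusted p under 0.05. Icam2 at day 1 is -0.79 in Rag-1 null lung and -2.41 in wild type lung, and Itgb2 at day 4 is near 2 in both (2.09 and 2.01).

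At day 4, 7 of the 9 genes were called in Rag-1 null lung, where 27.2% of all probes were, and 4 in wild type lung, where 23.3% were. All 9 ranges lay apart from control in Rag-1 null lung, as did those of 48.0% of all probes. In Rag-1 null lung the count of separate ranges was 8 at day 1 and 6 at day 10. In wild type lung it was 5 at day 4 and 4 at day 10. No share of all probes is given beside these 4 counts. At day 10, 3 genes were called in Rag-1 null lung (8.87% of all probes) and 0 in wild type lung (2.05% of all probes, limma), where 2 genes, Icam2 and Itgb2, had an unadjusted p under 0.05. The 3 of Rag-1 null lung were Itgb2 and Selplg, higher, and Icam2, lower. The 3 times within a genotype share their control arrays.

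The genotypes were then compared directly within each condition. In control lung 0 of the 9 genes were called (1.28% of all probes, limma), and Icam2 alone had an unadjusted p under 0.05, with a log2 fold change of -0.33 for Rag-1 null over wild type (adjusted p 0.373). At day 1, 4 of the 9 were called, beside 24.3% of all probes. Icam2 was 2.45-fold higher in Rag-1 null lung (1.29 ± 0.16, adjusted p 3.86e-06) and Pecam1 was 2.33-fold higher (1.22 ± 0.33, adjusted p 0.00951, or 0.161 with only the compared arrays in the fit). Vcam1 was 2.62-fold lower (-1.39 ± 0.18, adjusted p 1.07e-05) and Selp 2.27-fold lower (-1.18 ± 0.30, adjusted p 0.00608).
Without wild type replicate 1, when 6 of the 9 and 32.6% of all probes were called, those 4 calls held, at 1.40 for Icam2, 0.62 for Pecam1 (adjusted p 0.0409), -1.59 for Vcam1 and -1.14 for Selp. Sele, at -0.52 (adjusted p 0.00424), and Itgam, at 0.39 (adjusted p 0.0264), were then called too, where all arrays gave -0.33 (adjusted p 0.103) and 0.28 (adjusted p 0.102). Itgam was also called, at 0.45, without Rag-1 null LPS day 1 replicate 1 (adjusted p 0.00966).
Of the 15 endothelial markers, 7 were higher and 1 lower in Rag-1 null lung on that day, with and without the array, and of the 10 macrophage markers, 5 were higher, or 6 without it. Of the 14 neutrophil markers, 3 were lower, or 5 without it.

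The test of the difference between the responses put the day 1 response itself side by side, as the Rag-1 null log2 fold change minus the wild type one. Of the 9 genes, 2 were called, beside 8.21% of all probes, or beside 17.1% without wild type LPS day 1 replicate 1, when the same 2 were called. Icam2 fell less in Rag-1 null lung, with a difference of 1.62 ± 0.22 (adjusted p 8.99e-05), and Vcam1 rose less, with a difference of -1.42 ± 0.26 (adjusted p 0.0015). On the 3 slides the Icam2 difference was 1.25, 2.13 and 1.48, and the Vcam1 difference was -0.83, -2.25 and -1.17, so that each kept its direction on every slide. Without wild type LPS day 1 replicate 1 they were 1.73 and -1.62. The differences for Selp, -0.65 with a 95% interval of -1.54 to 0.23, and for Icam1, -0.40 with an interval of -0.96 to 0.16, did not pass (adjusted p 0.401 and 0.425), which leaves room for a difference of either size. The Pecam1 difference of 1.23 ± 0.47 did not pass (adjusted p 0.113), was 0.63 without wild type replicate 1, and was called at 1.63 without wild type LPS day 1 replicate 2 (adjusted p 0.0183).

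**Figure D4:**
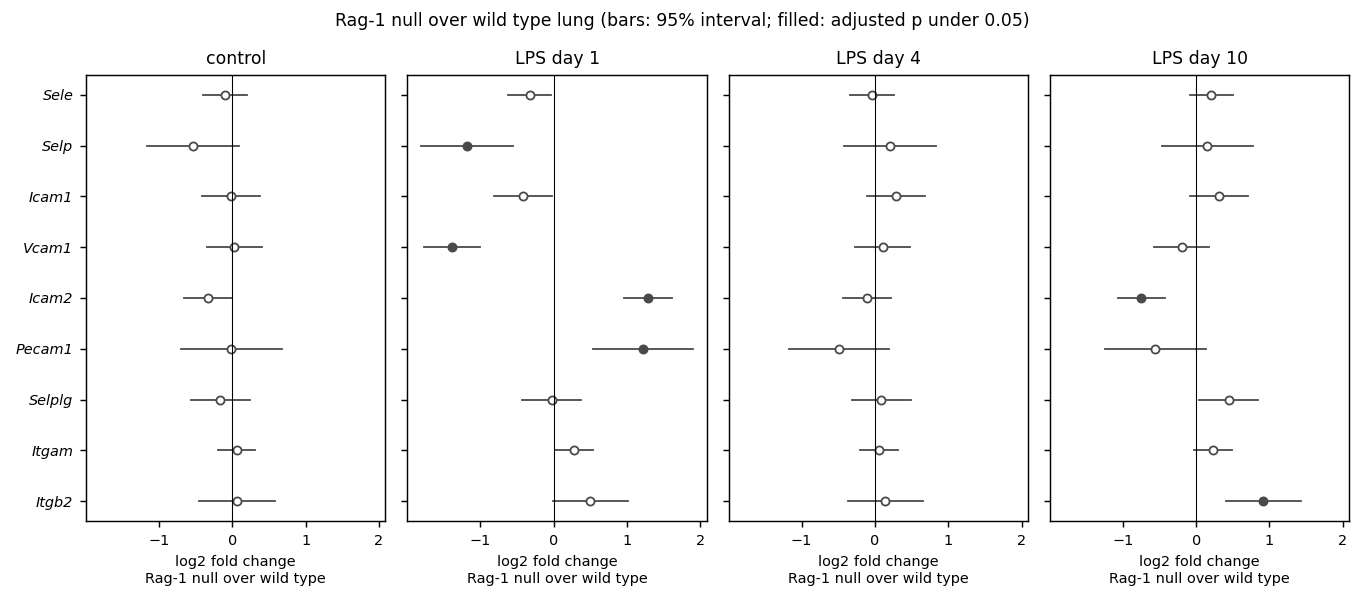
Log2 fold change of Rag-1 null over wild type lung (x axes) for each gene (y axis) in control lung and at day 1, 4 and 10 after LPS; bars are 95% intervals of the limma fit and filled points have an adjusted p under 0.05. At day 1 Icam2 (1.29) and Pecam1 (1.22) lie right of 0 and Vcam1 (-1.39) and Selp (-1.18) left of it, while at day 4 all 9 points are open.

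At day 4, 0 of the 9 genes differed between genotypes by the limma test, with 0 at an unadjusted p under 0.05 and 0.539% of all probes called. The intervals at day 4 still allow for Itgb2 a difference from -0.37 to 0.66 and for Icam2 one from -0.43 to 0.22. The day 4 responses also gave 0 called genes, with 0 at an unadjusted p under 0.05, beside 0% of all probes. At day 10, 2 of the 9 were called, beside 5.52% of all probes. Itgb2 was 1.89-fold higher in Rag-1 null lung (0.92 ± 0.25, adjusted p 0.029), and Icam2 was 1.68-fold lower (-0.75 ± 0.16, adjusted p 0.00454). The Itgb2 call was lost without wild type LPS day 10 replicate 2 or 3 or Rag-1 null LPS day 10 replicate 3 (adjusted p 0.121, 0.117 and 0.142). The ranges of 8 of the 9 genes did not overlap at day 10, as for 29.8% of all probes. Between genotypes that count was 3 in control lung, 6 at day 1 and 0 at day 4, with no share of all probes given beside it. Endothelial markers were lower in Rag-1 null lung at day 10 for 8 of 15, and macrophage markers higher for 5 of 10. The difference between the day 10 responses was called for 0 of the 9 (1.52% of all probes, limma), with 2, Selplg at 0.61 and Itgb2 at 0.85, at an unadjusted p under 0.05 (adjusted p 0.287 and 0.236).

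Between day 4 and day 10, 1 of the 9 genes was called in Rag-1 null lung, beside 9.66% of all probes, and 5 in wild type lung, beside 15%. Selp was lower at day 10 than at day 4 in both, by -1.31 ± 0.30 in Rag-1 null lung (adjusted p 0.00591) and -1.25 ± 0.30 in wild type lung (adjusted p 0.00616). The Selp call was lost in Rag-1 null lung without LPS day 4 replicate 2 (-1.04, adjusted p 0.0586) and in wild type lung without LPS day 4 replicate 1 (-0.84, adjusted p 0.0687). In wild type lung Itgb2 (-1.12, adjusted p 0.00331), Selplg (-0.83, adjusted p 0.00487) and Itgam (at least 1.18-fold lower, adjusted p 0.00344) were lower too and Icam2 was higher (0.52, adjusted p 0.0265). The Icam2 call was lost without wild type LPS day 4 replicate 1 (adjusted p 0.179) or LPS day 10 replicate 2 or 3 (adjusted p 0.0728 and 0.098), and in the authors' deposited table (adjusted p 0.0755). In Rag-1 null lung Itgb2 was at -0.35 (adjusted p 0.48), Selplg at -0.47 (adjusted p 0.139), which was called at -0.71 without LPS day 10 replicate 3 (adjusted p 0.0223), and Icam2 at -0.12 (adjusted p 0.756). Vcam1, at -0.55 (adjusted p 0.0617), and Itgam, at -0.38 (adjusted p 0.0517), were called there with only the compared arrays in the fit (adjusted p 0.0182 and 0.0446). The difference between genotypes in this step, a comparison added after the values were seen, was called for 0 of the 9 (0.613% of all probes, limma), with Icam2 at -0.64 (adjusted p 0.294) and Itgb2 at 0.77 (adjusted p 0.589) at an unadjusted p under 0.05. The shift from day 4 to day 10 was therefore not shown to differ between genotypes.

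The other genes of the cascade were described as 5 lists. At day 1 their counts stand beside 16.9% of all probes called in Rag-1 null lung and 39.2% in wild type lung. The wild type share was 45.3% without replicate 1. At day 4 the counts stand beside 27.2% in Rag-1 null lung and 23.3% in wild type lung. Of 11 measured genes for selectin ligands and the enzymes that build them, 3 were higher and 3 lower at day 1 in Rag-1 null lung, and 4 higher and 2 lower in wild type lung, with list medians of 0.26 and -0.01 beside -0.01 for all probes in each. Fut4, a fucosyltransferase that builds selectin ligands, rose by 0.73 in Rag-1 null lung (adjusted p 0.0101) and by 1.69, 3.23-fold, in wild type lung (adjusted p 4.27e-07). Cd44, a hyaluronan receptor that also binds E-selectin, rose at least 2.83-fold in wild type lung at day 1 (adjusted p 0.000785), with a fitted log2 fold change of 1.87, or 2.63 without replicate 1. Its probe was above background on 2 of 3 arrays of that group and on 0 of 3 wild type controls. Podxl, a sialomucin of endothelium and podocytes, fell by 0.47 in Rag-1 null lung (adjusted p 0.0421) and by 1.79 in wild type lung (adjusted p 1.28e-08). Glg1, an E-selectin ligand, fell by 0.58 in Rag-1 null lung and by 0.69 in wild type lung.
At day 4 the same list had 2 higher and 3 lower in Rag-1 null lung and 3 higher and 1 lower in wild type lung. The galactosyltransferase gene B4galt1 rose by 0.58 in Rag-1 null lung and by 0.76 in wild type lung, and Gcnt1, which makes the branched O-glycan core of selectin ligands, rose by 1.08 in Rag-1 null lung and by 0.77 in wild type lung. The sialyltransferase gene St3gal6 fell by 0.74 in Rag-1 null lung and by 0.92 in wild type lung.

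Of 8 measured other leukocyte integrin chains, 1 was higher and 1 lower at day 1 in Rag-1 null lung, and 2 higher and 4 lower in wild type lung, or 3 lower without wild type replicate 1. Itgav, the alpha chain of vitronectin receptors, rose at least 2.60-fold (adjusted p 8.11e-06) and Itga5, the alpha chain of the fibronectin receptor, at least 1.52-fold in wild type lung at day 1. The Itga5 probe was above background on 2 of 3 arrays of that group and on 0 of 3 wild type controls. Itgb7, the beta chain of a gut-homing receptor, fell by 1.04 in wild type lung at day 1 (adjusted p 0.000303), and rose by 1.24 at day 4 in Rag-1 null lung (adjusted p 6.89e-05). At day 4, 4 were higher and 2 lower in Rag-1 null lung and 2 higher and 0 lower in wild type lung. The shares of all probes called on that day were 27.2% and 23.3%. Itgal, the alpha chain of LFA-1, rose at day 4 by 0.92 in Rag-1 null lung and by 0.82 in wild type lung.

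Of 10 measured genes that activate integrins or attach them to actin, 6 were higher and 0 lower at day 1 in Rag-1 null lung, and 5 higher and 1 lower in wild type lung, with list medians of 0.62 and 0.41. Vav1, a signalling protein of leukocytes, rose by 1.82 in Rag-1 null lung (adjusted p 1.46e-08) and by 1.33 in wild type lung (adjusted p 3.14e-07). Fyb, an adaptor that links receptors to integrins, rose by 1.88 in Rag-1 null lung and by 1.73 in wild type lung. Fermt3, the leukocyte kindlin that activates integrin beta chains, rose at day 4 by 1.31 in Rag-1 null lung (adjusted p 2.04e-05) and by 1.26 in wild type lung (adjusted p 6.73e-05). At day 4, 5 were higher and 0 lower in Rag-1 null lung, and 4 higher and 2 lower in wild type lung, the 2 being Cytip (-0.90) and Rasgrp2 (-0.48).

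Of 13 measured endothelial junction and transmigration genes, 2 were lower and 0 higher at day 1 in Rag-1 null lung, and 6 lower and 4 higher in wild type lung, or 4 lower and 5 higher without wild type replicate 1. Of all probes, 16.9% were called in Rag-1 null lung and 39.2% in wild type lung on that day, or 45.3% without that array. Alcam, an immunoglobulin-type adhesion protein, fell by 0.84 in Rag-1 null lung (adjusted p 0.000211) and by 1.40 in wild type lung (adjusted p 1.15e-07). Cd99l2, which takes part in leukocyte passage between endothelial cells, fell by 0.85 in Rag-1 null lung and by 1.15 in wild type lung. Cd47, a partner of integrins, and Pvr, the nectin-like poliovirus receptor, rose in wild type lung by 0.95 and 0.96. At day 4, 5 were lower in Rag-1 null lung and 6 in wild type lung, with none higher, among them the endothelial junction protein gene Esam (-1.07 in Rag-1 null lung and -0.69 in wild type lung). Of the last list, only Vcan and Thy1 were measured. Vcan, a matrix proteoglycan that binds leukocytes, rose 2.23-fold in Rag-1 null lung (adjusted p 0.000454) and at least 4.51-fold in wild type lung at day 1 (adjusted p 4.98e-09). Thy1, carried by T cells and fibroblasts, fell by 1.43 at day 1 in wild type lung and rose by 1.06 at day 4 in Rag-1 null lung. Of 6 T cell markers, 3 were lower and 1 higher in wild type lung at day 1, beside 39.2% of all probes. Their part in the Thy1 value was not tested.

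Across the 24 arrays the 9 genes fell into patterns that are described here without a test, because the arrays share their groups. Sele, Selp, Icam1 and Vcam1 correlated with one another at a Pearson r of 0.79 to 0.92, the highest between Selp and Icam1. Icam2 ran against them, at -0.75 to -0.85, and with Pecam1 at 0.67. Selplg correlated with Itgam at 0.79 and with Itgb2 at 0.76, and Itgb2 with Sele at 0.01. For each gene, the most similar of 9604 other measured genes were found by the same r. Nearest to Sele were Gar1 (0.94), Marcks (0.94) and Ptx3 (0.93), and to Selp Mt2 (0.97), Rffl (0.96) and Nfkbiz (0.95). Icam1 had Osmr (0.94), Csf1 (0.92) and Gnl3 (0.92), and Vcam1 had Crk (0.95), Azi2 (0.95) and Mx2 (0.95). Icam2 had Ncald (0.94), Limch1 (0.93) and Tmem205 (0.93), and Pecam1 had Hdac7 (0.91), Tie1 (0.90) and Ndufa4 (0.90). Selplg had Sema4a (0.95), Trpv2 (0.95) and Clec4d (0.95), Itgam had Cxcl13 (0.91), Cd33 (0.89) and Pilrb1 (0.88), and Itgb2 had Mcemp1 (0.95), Ctsz (0.94) and Sirpb1a (0.93). Tie1 is one of the endothelial markers and Clec4d one of the neutrophil markers counted above.

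**Figure D5:**
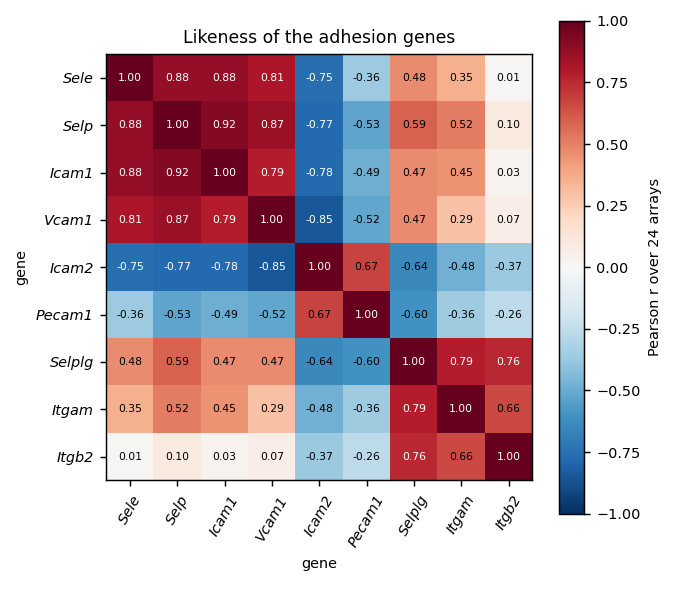
Pearson r over 24 arrays (colour and numbers) between the log2 normalized intensities of the 9 genes (both axes). Sele, Selp, Icam1 and Vcam1 form a block at 0.79 to 0.92, and Itgb2 correlates with them at 0.01 to 0.10.

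Ordered by group mean, Sele, Selp, Icam1 and Vcam1 were all highest in wild type lung at day 1. The second place was Rag-1 null lung at day 1 for Sele, Selp and Icam1, at means of 5.17 ± 0.21, 7.27 ± 0.30 and 11.52 ± 0.09, against 5.49 ± 0.34, 8.46 ± 0.22 and 11.94 ± 0.07 in wild type lung (SD, n = 3). The ranges of these neighbours overlapped for Sele and not for Selp or Icam1. For Vcam1 Rag-1 null lung at day 4 (8.61 ± 0.12) came next, followed by Rag-1 null lung at day 1 (8.57 ± 0.16) with an overlapping range. Icam2 was highest in the controls (9.34 ± 0.11 in Rag-1 null and 9.67 ± 0.14 in wild type lung) and lowest in wild type lung at day 1 (7.26 ± 0.33), with no overlap between those 3 groups and their neighbours in the order. Itgb2 was highest at day 4 in both genotypes, 7.63 ± 0.50 in Rag-1 null and 7.48 ± 0.43 in wild type lung, and these overlapped.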

How the data were processed

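Per the labels' protocols, lung RNA was labelled as biotinylated cRNA (Ambion MessageAmp) for Illumina beadchips. The scanner table that the authors deposited gives each probe's bead signal, a linear intensity, with a detection score, a fraction used here as 1 minus the detection p. The authors' deposited value table holds 13029 of the probes on a log2 scale and serves as an alternative: each of its columns equals log2 of 1 scanner column minus that column's mean, within 0.000543, while no other column comes nearer than 1.42. That match, and not the title line above the scanner columns, ties columns to samples, because the title line runs in another order and names another sample for 22 of 24 columns.

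With limma 3.58.1 in R 4.3.3, signals were background-corrected and quantile normalized (neqc, offset 16). A probe was tested with a detection p under 0.05 on at least 3 arrays. One fit of 8 group means over 24 arrays, with an intensity trend, gave two-sided p-values adjusted by the Benjamini-Hochberg method over all 13544 probes, and intervals are at the 95% level. The number of arrays, 3 a group, limits the precision. Symbols come from the platform annotation, with 11733 probes having 1 symbol. Named beside the 9 genes were, for each list at day 1 and day 4, up to 3 genes a direction with the smallest adjusted p, of which the text gives some, the defining genes of each marker list, and the 3 genes most like each member. The members and lists were chosen with earlier results of these data known. Replicate numbers mark slides. Same-numbered arrays deviated together weakly or not at all (correlation of deviations -0.49 to 0.37, median 0.06, over 0.1 in 32 of 84 pairs). The median was -0.03 for arrays of another number and group. The fit with the number as a block was therefore kept as an alternative. Others tried were no background correction, no or a stricter detection filter, no intensity trend, only the compared arrays, leaving out each array, and array weights. The fit was also run on simulated data, with no outcome given here, so that run adds no support to these values.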

Additional observations from a re-analysis of the deposited data

Results flagged for a closer look

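Among the 9 genes, 2 differed between genotypes in their day 1 response by the test of the difference itself, beside 8.21% of all probes, or 17.1% without wild type LPS day 1 replicate 1. Icam2 had a difference of 1.62 on the log2 scale, the Rag-1 null response minus the wild type response (adjusted p 8.99e-05 by limma), with a response of -0.79 in Rag-1 null lung and -2.41 in wild type lung. Vcam1 had a difference of -1.42 (adjusted p 0.0015), with a response of 0.49 in Rag-1 null lung and 1.91 in wild type lung. Each difference had the same direction on all 3 slides.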

How the results depend on the processing

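No called value of the 9 genes reversed under any alternative run. Of 144 values per setting, 143 kept their side of the threshold without background correction, with the replicate block and without the intensity trend, 141 without a detection filter, 135 in the authors' deposited table, 133 with only the compared arrays and 127 with array weights, chosen after seeing the data. The stricter filter kept Selp, Selplg, Icam1, Icam2, Vcam1, Itgb2 and Pecam1, and all 112 of their values held.

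In wild type lung at day 1, 9 called genes became 6 with only the compared arrays (Itgam, Itgb2 and Pecam1 lost) and 7 to 9 on leaving out an array. In Rag-1 null lung at day 4, 7 became 5 without the detection filter and 5 to 7 on leaving out an array. In wild type lung at day 10, 0 called genes became 2 in the deposited table, with the compared arrays and with array weights. For Rag-1 null lung at day 10 against day 4, 1 became 2 in the deposited table, 3 with the compared arrays and 4 with array weights, and 0 to 2 on leaving out an array. Array weights gave 7 in place of 4 for Rag-1 null against wild type lung at day 1, and 4 in place of 2 at day 10, where leaving out an array gave 1 to 2. For the genotype difference in the day 1 response, Pecam1 was called too with array weights (0.87, adjusted p 0.0471), and leaving out an array gave 2 to 3. The genotype difference in the day 10 response gave 1 in place of 0 in the deposited table and with array weights, and that from day 4 to day 10 gave 1 in place of 0 with array weights. In Rag-1 null lung against control, array weights also gave calls for Vcam1 at day 1, Icam1 at day 4 and Pecam1 at day 10 (adjusted p 0.00448, 0.0326 and 0.00155). Wild type lung at day 10 against day 4 gave 3 to 5 on leaving out an array, against 5. With the replicate block Pecam1 in Rag-1 null lung at day 4 (-0.91, adjusted p 0.0554) was the 1 call lost, and no other call changed. Itgb2 at day 1 in wild type lung was lost without background correction (0.42, adjusted p 0.0904), in the deposited table (0.41, adjusted p 0.168), without the filter (adjusted p 0.0519) and with the compared arrays (adjusted p 0.136). The causes were not tested. A second probe per gene could not be tried, as each gene had 1. Sele and Itgam, above background on 8 of 24 arrays each, are limited by signal.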

Other observations

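Of 8 measured integrin chains outside the 9 genes, 2 were called at day 10 in Rag-1 null lung, beside 8.87% of all probes, and 1 in wild type lung, beside 2.05%. Itgax, the CD11c chain of dendritic cells and alveolar macrophages, was chosen after its values were seen. At day 10 it averaged 7.23 in Rag-1 null lung, against 5.69 in Rag-1 null controls, and 6.46 in wild type lung, against 5.24 in wild type controls, with called log2 fold changes of 1.55 (adjusted p 4.26e-05) and 1.21 (adjusted p 0.00576) by limma. Itgax was already higher at day 1 in Rag-1 null lung (0.65, adjusted p 0.0376) and at day 4 in wild type lung (0.90, adjusted p 0.00407). Itgae, the chain that binds E-cadherin, chosen in the same way, averaged 6.58 in Rag-1 null lung at day 10, against 5.60 in Rag-1 null controls (0.99, adjusted p 0.00273), and 6.03 in wild type lung, against 5.57 in wild type controls (0.46, adjusted p 0.26). At day 1 Itgae was lower in wild type lung (-0.66, adjusted p 0.0144).

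Heart muscle markers were lower in Rag-1 null lung at day 1 and day 4 for 3 of 4 measured genes. Those days had 16.9% and 27.2% of all probes called. Arrays of one group differed widely in these markers. Their list mean was 6.59 to 8.19 in Rag-1 null controls, 5.58 to 6.19 at day 1 and 5.12 to 6.82 at day 4, which overlapped control. In wild type lung it was 5.29 to 7.94 in controls and 5.45 to 7.63 at day 1. The cause of this spread was not tested. In wild type lung 0 of 4 were called against control by limma, while 3 of 4 were higher at day 10 than at day 4 (median log2 fold change 2.76). The difference between the genotypes' responses was called for 0 of 4 at day 1 and at day 4, and for 1 at day 10. The shares of all probes were 8.21%, 0% and 1.52%.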
